A study of Rattus norvegicus with 5 samples.

Results

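Striatopallidal neurons are the spiny projection neurons of the striatum whose axons end in the pallidum, and they form the indirect pathway of the basal ganglia. Here they are represented by 3 of the 5 libraries of the series, chosen by the cell type label and not by any measured value. The neurons were from the rat striatum, marked with a fluorescent tracer that is taken up at axon endings and carried back to the cell body, and cut out by laser capture microdissection. The other 2 libraries hold striatomesencephalic neurons, the direct pathway neurons that project to the midbrain, collected by the same route. The labels give no strain, age, sex or treatment, and no number of animals or of cells per library. Nor do they say that the 3 libraries came from separate animals, so the spread between them may in part be technical. Both groups were marked with retrograde tracer.

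As background, spiny projection neurons release GABA and integrate cortical and thalamic glutamate with dopamine. In striatopallidal neurons dopamine acts through the Gi-coupled receptor Drd2, adenosine acts through the Gs-coupled receptor Adora2a, and enkephalin, made from Penk, is the co-released peptide. The orphan receptor Gpr6 is a further known marker. Direct pathway neurons instead carry Drd1 and make substance P (from Tac1) and dynorphin (from Pdyn). The profile below gives the receptors, channels, transporters, peptides and transcription factors that were read in these neurons, and how far the libraries agreed on each.

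Striatopallidal replicates 1, 2 and 3 held 23843228, 24805062 and 22413168 counts. Values are CPM, a gene's count divided by its library's total and scaled to 1000000 counts, and wherever 3 values follow a gene they belong to replicates 1, 2 and 3 in that order. A gene was kept with at least 10 counts in each of the 3 libraries, which left 11150 of 32285 gene identifiers, of which 10659 have a symbol. Those 11150 genes held 99.0%, 99.5% and 99.0% of the counts. A count of 10 has an exact 95% Poisson interval of 4.80 to 18.4 counts, and 3 counts, taken as the detection floor, equal 0.121 to 0.134 CPM. Both cover counting error only, since the reads carry no molecular identifiers. Ranks order genes by their share of the reads. Longer transcripts give more reads and transcript lengths were not used here, so a rank says nothing about which of a pair of genes had more molecules.

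Replicate 2 stood apart from the other 2 striatopallidal libraries. Over the 11150 kept genes (genes, not independent replicates) Spearman's rho was 0.898 for replicates 1 and 3, 0.776 for 1 and 2, and 0.759 for 2 and 3. Replicate 2 had the lowest CPM of the 3 libraries for 5883 genes (52.8%), or 4601 genes (41.3%) after TMM scaling, which adjusts the totals for a few genes that take many reads. In it 542 genes held 50% of its counts, against 692 and 701 in replicates 1 and 3. It was also the library that most often missed the minimum: 1468 genes reached 10 counts in both other libraries and not in it, against 102 and 317 genes missing in replicate 1 or 3 alone. Counts of genes on which the libraries agreed are therefore given with and without it.

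The 4 markers of this neuron type were read in every striatopallidal library. Adora2a stood at 2558, 3676 and 2814 CPM, or 3016 ± 586 CPM (SD, n = 3), and Penk at 2242, 1259 and 2395 CPM, or 1965 ± 616 CPM (SD, n = 3). Drd2 stood at 606, 391 and 524 CPM, or 507 ± 109 CPM (SD, n = 3), and Gpr6 at 247, 166 and 296 CPM, or 236 ± 65.7 CPM (SD, n = 3). In striatomesencephalic replicates 1 and 2 the same genes had 824 and 1150.5 CPM for Adora2a, 261 and 361 CPM for Penk, 144 and 110.0 CPM for Drd2 and 144 and 89.0 CPM for Gpr6. For 4 of the 4, the lowest striatopallidal value lay above the highest striatomesencephalic value, a pattern shown by 11.5% of all kept genes. The gap was narrow for Gpr6, where the lowest striatopallidal library exceeded the highest striatomesencephalic one 1.15 times, and wider for Penk (3.49 times), Drd2 (2.71 times) and Adora2a (2.22 times). No test between the groups was made here. In material of this kind fewer cells of a type and less RNA per cell cannot be told apart.

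Direct pathway transcripts were read in the striatopallidal libraries too. Drd1 stood at 582, 311 and 415 CPM, Tac1 at 1377, 1048 and 861 CPM and Pdyn at 394, 190.3 and 274 CPM. These lay below the striatomesencephalic values, which were 861 and 1084 CPM for Drd1, 2260.5 and 2824 CPM for Tac1 and 1199 and 923 CPM for Pdyn. The ratio of Drd1 to Drd2 reads was 0.961, 0.797 and 0.792 in the striatopallidal libraries and 5.98 and 9.86 in the striatomesencephalic ones, so Drd1 reads were nearly as many as Drd2 reads in the libraries labelled striatopallidal. The ratio of Tac1 to Penk reads was 0.614, 0.832 and 0.360 against 8.66 and 7.83. Ebf1 and Isl1, transcription factors of direct pathway neurons, stood at 97.8, 149.9 and 96.7 CPM and 18.7, 14.2 and 2.86 CPM, and Chrm4, the muscarinic receptor known for direct pathway neurons, at 15.8, 17.7 and 16.6 CPM. Ebf1 and Chrm4 overlapped with the striatomesencephalic libraries, which had 267 and 132 CPM and 12.9 and 41.9 CPM. Summed over the 6 direct pathway markers the libraries held 2485, 1732 and 1666 CPM, against 4651 and 5061 CPM in the striatomesencephalic libraries. Whether these reads come from the captured neurons or from neighbouring ones was not tested.

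**Figure D1:**
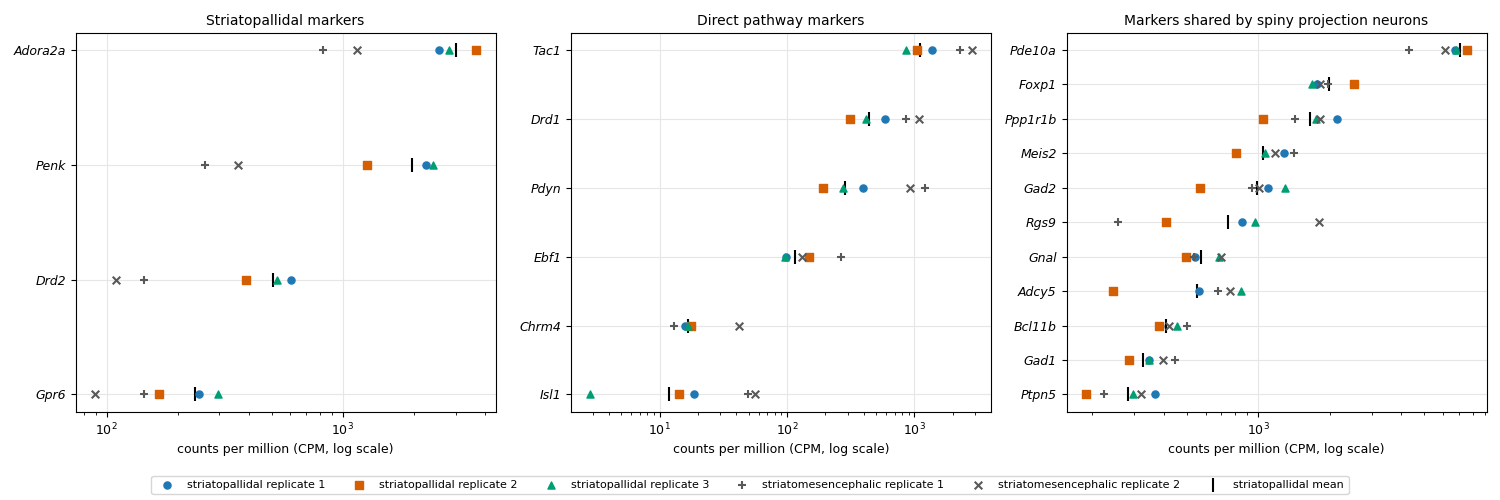
CPM (log axis) of the 4 striatopallidal markers, 6 direct pathway markers and 11 markers shared by spiny projection neurons; coloured symbols are the 3 striatopallidal libraries, grey crosses the 2 striatomesencephalic libraries and black bars the striatopallidal mean. All 3 striatopallidal points lie right of both crosses for Adora2a, Penk, Drd2 and Gpr6, and left of both for Tac1, Drd1, Pdyn and Isl1.

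All 12 markers common to direct and indirect pathway neurons were kept, and their summed CPM was 21443, 17957 and 21684. Pde10a, the phosphodiesterase that breaks down cyclic nucleotides in these neurons, stood at 6723, 7579.9 and 6761 CPM, and Ppp1r1b, which encodes the dopamine-regulated phosphoprotein DARPP, at 2143, 1045 and 1753 CPM. The GABA-synthesizing enzymes Gad1 and Gad2 had 346, 285 and 348 CPM and 1099, 567 and 1298 CPM. Gnal and Adcy5, the G protein and the adenylyl cyclase through which dopamine and adenosine receptors signal in the striatum, had 543, 498 and 685 CPM and 562, 244 and 845 CPM. Replicate 2 was the lowest of the 3 for 10 of these 12 genes by CPM and for 7 after TMM scaling, which took Gnal, Gad1 and Bcl11b off the list. Over all kept genes it was the lowest for 52.8% by CPM and 41.3% after TMM scaling.

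RNA of glia was present in each striatopallidal library. The 8 oligodendrocyte markers summed to 7089, 6639 and 5230 CPM, with the myelin gene Mbp at 3365, 3767 and 2289 CPM, and the striatomesencephalic sums were 5904 and 7345 CPM. The 8 astrocyte markers summed to 1528, 999 and 1287 CPM, against 1371 and 1167 CPM, and 1 of them, Aldh1l1, was not kept, with 1.55, 0.484 and 0.312 CPM. The sums hide a difference in Gfap, the astrocyte filament gene, which had 243, 175 and 87.7 CPM against 11.5 and 3.85 CPM in the striatomesencephalic libraries. Its lowest striatopallidal value exceeded the highest striatomesencephalic one 7.65 times, a wider gap than that of any of the 4 striatopallidal markers. Its part in the marker differences was not tested. The lists that follow were matched in part or not at all, so their sums cannot be set against those above. Markers without a match were not analysed. Sums were 173 to 283 CPM for 3 of 5 markers of oligodendrocyte precursors and 29.6 to 89.7 CPM for 4 of 7 of microglia. For 4 of 7 markers of blood vessels they were 54.6 to 119 CPM. For interneurons they were 41.2 to 122 CPM over 3 of 8 GABA interneuron markers and 7.81 to 23.6 CPM over 3 of 4 cholinergic markers. Chat, the acetylcholine-synthesizing enzyme that defines the cholinergic type, had 2.10, 19.2 and 4.33 CPM. None of the 6 markers of glutamatergic neurons had a match in the symbols used, so they were not analysed. The 1 matched blood marker of 3 had 9.35, 9.43 and 0.134 CPM. No matched marker of any list was at 0 counts in all 3 libraries. The part of this RNA in the values below was not tested.

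Leaving aside Frmd6, whose high mean came from 1 library, the highest mean CPM belonged to Atp2b1. This gene, which encodes a plasma membrane pump that expels calcium, stood at 7814, 6879 and 7405 CPM. Next by mean CPM came Pde10a, given above, and Prkcb, a calcium-dependent protein kinase C, at 5942, 5914 and 7106 CPM. The phosphatase regulator Phactr1 stood at 4585, 7724 and 3741 CPM. Ppp3ca, the catalytic subunit of the calcium-dependent phosphatase calcineurin, had 4325, 4811 and 4187 CPM. Calm2, a calmodulin gene, had 3556, 2809.6 and 3407 CPM. These 6 genes were high in every striatopallidal library, with ratios between the highest and the lowest library from 1.13 (Pde10a) to 2.06 (Phactr1).

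The other genes among the 20 highest with a symbol were of mixed kind. Hsp90ab1, a chaperone, stood at 3834, 4463 and 3931 CPM, and Ppp1cc, a catalytic subunit of protein phosphatase 1, at 2910.1, 2541 and 3522 CPM. Mt-co1, a cytochrome oxidase subunit encoded by the mitochondrial genome, had 4317, 3531 and 3663 CPM. The postsynaptic protein gene Anks1b had 2395, 3236 and 2792 CPM, Armcx3 3129, 2353 and 2934 CPM and Nisch 1679, 4423 and 2934 CPM. Kcnab1 and Mbp, described with the potassium channels and the glial markers, were also among them, and 2 further entries are not described. Adora2a, with rank 15, was the only 1 of the 4 striatopallidal markers among the 20, while Penk had rank 37, Drd2 rank 295 and Gpr6 rank 833 of 10659.

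A few of the highest means came from 1 library. Frmd6, a FERM domain gene, had rank 1 by mean CPM with 524, 28862 and 420.4 CPM, and Got2, the mitochondrial aspartate aminotransferase, had 827, 8507 and 787 CPM; both were high in replicate 2 alone. Syn2, a synapsin of synaptic vesicles, had 7563, 266 and 479 CPM and was high in replicate 1 alone. Ordering by the median of the 3 libraries in place of the mean kept 17 of the 20 genes and dropped these 3, whose places went to Cyfip2, Dclk1 and Actr2. Only 10 genes were among the 20 highest in each of the 3 libraries taken alone.

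Agreement between the libraries was limited, and it was best for genes with many reads. The highest CPM was at most 2 times the lowest, called within 2-fold below, for 3812 of the 11150 kept genes, or 34.2%, and the median ratio was 2.64. The share was 76.0% for the 300 genes of mean 500 CPM or more and 54.9% for the 1876 genes from 100 to 500 CPM. It was 33.3% for 4464 genes from 20 to 100 CPM, 21.3% for 2999 genes from 5 to 20 CPM and 28.3% for 1511 genes below 5 CPM. Without replicate 2, 9016 of 12618 genes were within 2-fold (71.5%), against 49.3% without replicate 1 and 49.2% without replicate 3. By level, the shares without replicate 2 were 96.0% at 500 CPM or more, 90.9% from 100 to 500 CPM, 77.3% from 20 to 100 CPM, 60.2% from 5 to 20 CPM and 58.3% below 5 CPM. These shares are the background for each count of a class or group below. For the counts of members kept, the background is all genes with a symbol, of which 10659 were kept and 1380 were not. Symbols cover only the genes of the authors' deposited comparison, so a high share kept is no trait of a class.

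Single libraries stood far from the other 2 for a minority of genes. Replicate 2 was at least 10-fold below both others for 379 genes, against 5 genes for replicate 1 and 10 for replicate 3, and for 251 genes after TMM scaling. It was at least 10-fold above both for 104 genes (153 after TMM scaling), which by CPM together held 7.01% of its counts, against 32 genes with 1.11% in replicate 1 and 41 genes with 1.07% in replicate 3. For 68 of the 104, the other 2 libraries were within 2-fold of each other. Both kinds of gene were found in each library, and replicate 2 had the most.

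**Figure D2:**
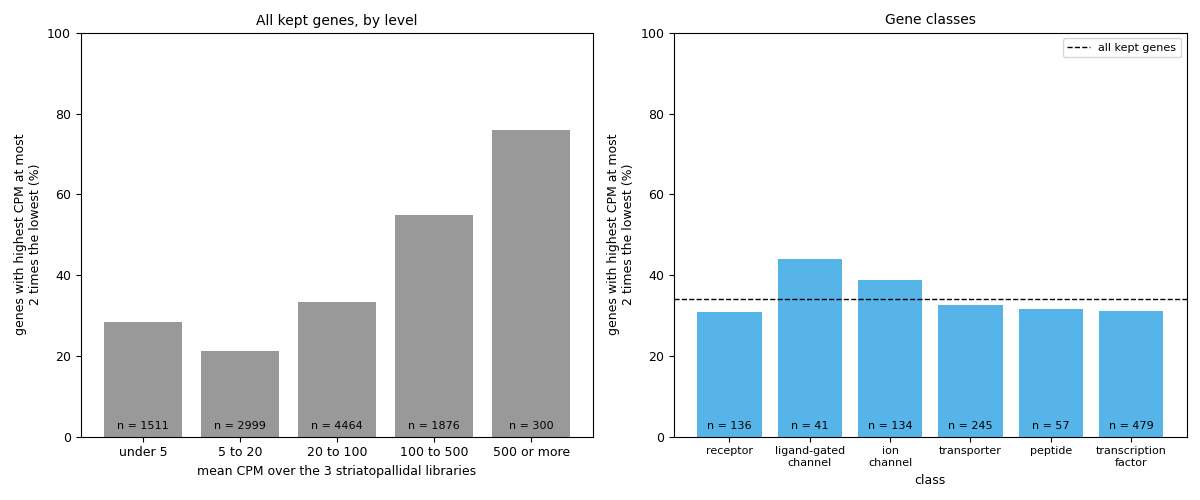
Percent of kept genes whose highest CPM was at most 2 times the lowest over the 3 striatopallidal libraries, for all kept genes by mean CPM (left) and for the 6 gene classes (right); n is the number of genes and the dashed line marks all kept genes. The share is 76.0% at 500 CPM or more and 21.3% from 5 to 20 CPM, and the classes lie between 30.9% (receptors) and 43.9% (ligand-gated channels).

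Of 159 receptor genes in the symbols used, 136 were kept, and 42 of these were within 2-fold (30.9%, with 34.2% over all kept genes). Of the 35 with a mean of 100 CPM or more, 20 were within 2-fold, where all kept genes of that level gave 57.8%. Without replicate 2, 151 were kept and 100 were within 2-fold, where all genes gave 71.5%. The receptors for dopamine and adenosine are given above; Adora1, the Gi-coupled adenosine receptor, was read at 17.4, 4.56 and 14.5 CPM. Drd3, a Gi-coupled dopamine receptor, was not kept, with 10, 1 and 589 counts, nearly all in replicate 3.

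Of 8 metabotropic glutamate and GABA-B receptors, all kept, 5 were within 2-fold, and 7 without replicate 2. Their median level was 380.0 CPM. Of the 5 with a mean of 100 CPM or more, 4 were within 2-fold, where all kept genes of that level gave 57.8%. Grm7, a presynaptic Gi-coupled member, stood at 526, 599 and 444 CPM. The Gq-coupled member Grm5 stood at 524, 296 and 388 CPM. All 3 muscarinic receptors kept were read at modest levels, Chrm1 at 25.3, 22.3 and 24.1 CPM, Chrm3 at 31.0, 15.2 and 21.0 CPM and Chrm4 as above. Chrm5 was not kept, with 157, 1 and 21 counts.

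Further receptors for modulators were read. Cnr1, the cannabinoid receptor that sits on the terminals of these neurons, stood at 863, 247 and 616 CPM. Oprm1, the mu opioid receptor, had 149, 34.3 and 236 CPM, and Oprd1, the delta receptor that binds enkephalin, 12.8, 1.29 and 5.13 CPM, while Oprk1, the kappa receptor, was not kept (125, 7 and 68 counts). Hrh3, a Gi-coupled histamine receptor, had 206, 80.8 and 344 CPM, and the adrenergic receptor Adra2c 20.9, 13.9 and 47.6 CPM. Replicate 2 was the lowest library for each of these kept genes, as it was for 52.8% of all kept genes.

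Of 7 kept serotonin receptors 0 were within 2-fold (34.2% over all kept genes, and 21.3% from 5 to 20 CPM, where the group's median level of 18.1 CPM lies). Without replicate 2, 8 were kept and 5 were within 2-fold, where all genes gave 71.5%. No tally of this group was made without replicate 1 or 3. Htr2c, a Gq-coupled receptor, had 265, 68.3 and 169 CPM, with replicate 2 lowest, and Htr4, a Gs-coupled receptor, had 87.2, 189 and 78.0 CPM, with replicate 2 highest. The ratio of Htr2c to Htr4 reads was therefore 3.04 and 2.16 in replicates 1 and 3 and 0.361 in replicate 2, and 41.1 and 204 in the striatomesencephalic libraries. Htr2a was at 88.2, 0.524 and 83.3 CPM, which is 2103, 13 and 1866 counts, so it was close to the 10-count minimum in replicate 2. Of 19 kept receptors for peptides and hormones, 3 were within 2-fold, and 11 of 20 without replicate 2. The members with the most reads were Adcyap1r1, the receptor for the peptide PACAP, at 25.8, 125 and 41.7 CPM, the relaxin receptor Rxfp1 at 32.0, 24.3 and 15.6 CPM and the endothelin receptor Ednrb at 29.2, 13.7 and 18.8 CPM.

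Among 31 kept orphan receptors, 12 were within 2-fold, Gpr6 included, and 24 of 34 without replicate 2 (34.2% and 71.5% over all genes). Gpr158 stood at 301, 179 and 309.7 CPM, high in replicates 1 and 3 as Gpr6 was. Of the adhesion receptors, which bind partners across the synapse, Adgrb3 stood at 1660.4, 1879 and 1622 CPM, the latrophilin Adgrl3 at 823, 1587 and 752 CPM and the latrophilin Adgrl2 at 659.5, 397 and 551 CPM. Receptor tyrosine kinases were led by Ntrk3, the receptor of neurotrophin-3, at 551, 1422 and 994 CPM, Ntrk2, the receptor of BDNF, at 886, 1128 and 671 CPM, and the ephrin receptor Ephb1 at 636, 899.7 and 909 CPM. Of the 33 kept kinases of this kind 10 were within 2-fold, and 22 of 34 without replicate 2, beside the same shares over all genes.

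Lipid and protease-activated receptors included 4 kept genes. F2r, the thrombin receptor, stood at 24.7, 16.8 and 24.4 CPM and the sphingosine phosphate receptor S1pr1 at 47.9, 145 and 62.9 CPM. Ptafr, the receptor of platelet-activating factor, had 19.7, 313 and 4.42 CPM, nearly all in replicate 2. Among receptors of mean 20 CPM or more the widest spreads were those of Htr2a, P2ry2, a nucleotide receptor with 1.51, 246 and 2.05 CPM, and Ddr2, a collagen receptor with 1.64, 0.766 and 79.6 CPM. In each, 1 library stood apart: Htr2a was low in replicate 2, P2ry2 was high in replicate 2 alone and Ddr2 in replicate 3 alone.

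**Figure D3:**
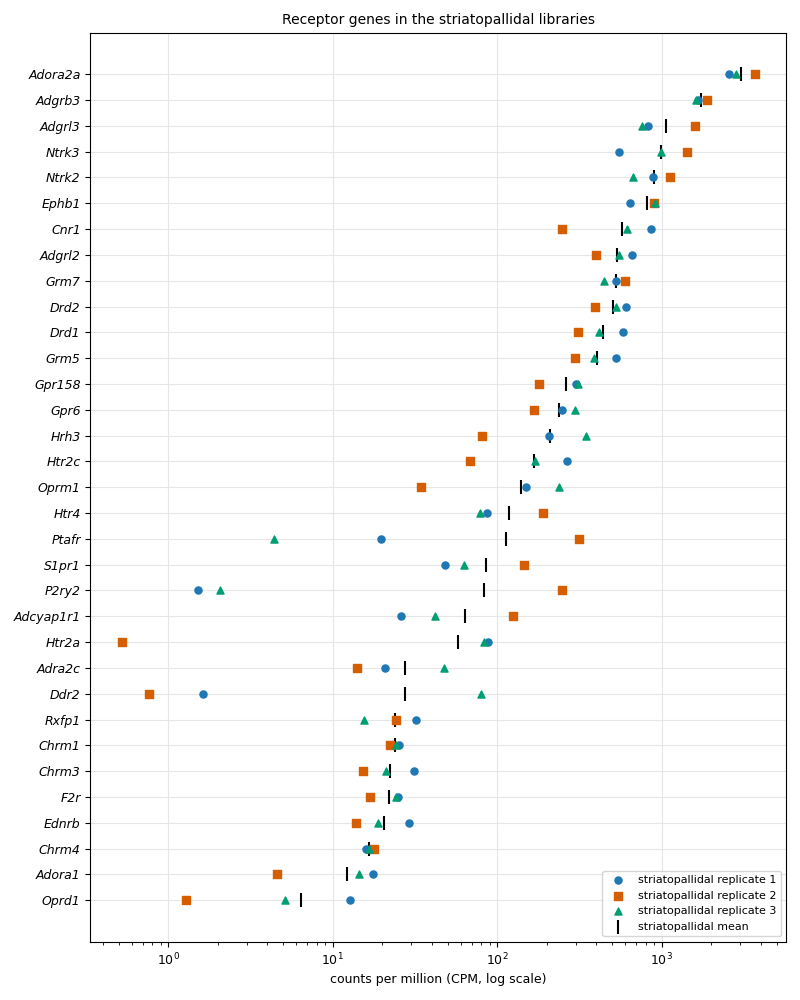
CPM (log axis) in each striatopallidal library (coloured symbols) and their mean (black bar) for the receptor genes of highest mean CPM in each group and the 3 of widest spread at a mean of 20 CPM or more. Adora2a, Adgrb3, Grm7, Chrm1 and Chrm4 have points close together, while Htr2a, P2ry2, Ddr2 and Ptafr have 1 point far from the others.

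Of 46 ligand-gated channel genes, 41 were kept and 18 of these were within 2-fold (43.9%, with 34.2% over all kept genes). Without replicate 2 it was 34 of 44, where all genes gave 71.5%. Of the 14 with a mean of 100 CPM or more, 11 were within 2-fold, where all kept genes of that level gave 57.8%. The AMPA receptor subunits, which carry fast excitation, were within 2-fold in 4 of 4 cases, with or without replicate 2: Gria2 at 2062, 2088 and 2539 CPM, Gria3 at 692, 881 and 812 CPM, Gria4 at 468, 527 and 581 CPM and Gria1, named only to complete the group of 4, at 252, 240.2 and 302 CPM. All 4 had means of 100 CPM or more, where 57.8% of all kept genes were within 2-fold, and 91.6% without replicate 2. The ratio of the highest to the lowest library ran from 1.23 (Gria2) to 1.27 (Gria3), and replicate 3 was the highest for Gria2, Gria4 and Gria1. For NMDA receptors, Grin1, the obligatory subunit, stood at 135, 160.3 and 127 CPM, Grin2b at 615, 371 and 329.8 CPM and Grin2a at 61.5, 40.6 and 45.4 CPM, and Grin3a was not kept (142, 2 and 49 counts).

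The kainate receptor subunit Grik2 stood at 1218, 763 and 920.1 CPM. Grik5, a further kainate subunit, had 164, 723 and 132 CPM, high in replicate 2. GABA-A receptor subunits, through which these neurons are inhibited, included Gabra4 at 879, 638 and 824 CPM. Of 14 kept GABA-A and glycine subunits 6 were within 2-fold, and 13 of 15 without replicate 2 (34.2% and 71.5% over all genes).

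Nicotinic, nucleotide-gated and acid-sensing channels were read at lower levels. The nicotinic subunit Chrna5 had 12.6, 63.7 and 40.7 CPM, and the ATP-gated channels P2rx5 and P2rx4 had 15.3, 35.6 and 15.8 CPM and 24.1, 2.42 and 37.7 CPM. Asic1 and Asic2, opened by protons, had 27.0, 73.3 and 83.7 CPM and 22.0, 72.0 and 20.3 CPM. Asic4, a member of the same family, had 35.0, 1.77 and 25.1 CPM, and both it and P2rx4 were lowest in replicate 2. Of 12 kept genes of these 2 groups 2 were within 2-fold, and 9 of 13 without replicate 2 (34.2% and 71.5% over all genes).

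Of 158 genes of voltage-gated and other ion channels, 134 were kept and 52 of these were within 2-fold (38.8%), and 103 of 149 without replicate 2. All genes gave 34.2% and 71.5%. Voltage-gated calcium channels were within 2-fold for 12 of 20 genes, and for 21 of 21 without replicate 2. Their median level was 99.5 CPM. Of the 10 with a mean of 100 CPM or more, 9 were within 2-fold, where all kept genes of that level gave 57.8%, or 91.6% without replicate 2. The other members lay below 100 CPM, where all kept genes gave 33.3% or less, and 77.3% or less without replicate 2. The auxiliary subunits Cacna2d3, Cacnb2 and Cacna2d1 stood at 1634, 1686 and 1449 CPM, 835, 1086 and 741 CPM and 665, 1004 and 644 CPM. Sodium channels were led by the beta subunit Scn4b, which shapes the resurgent current, at 2398, 1201 and 2778 CPM, and Scn3b at 743, 571 and 728 CPM. The pore-forming subunit Scn8a stood at 305, 295 and 295 CPM, with a ratio of 1.03 between the highest and the lowest library.

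Potassium channels set the resting and firing properties of spiny projection neurons. Kcnab1, an auxiliary subunit of voltage-gated potassium channels, stood at 4397, 2618 and 4419.9 CPM, with rank 11 by mean CPM. Kcnq5, a subunit of the M-type channel closed by muscarinic receptors, stood at 705, 722 and 721 CPM and Kcna1 at 409, 856 and 518 CPM. Of 26 kept voltage-gated potassium channel genes 7 were within 2-fold, and 19 of 28 without replicate 2 (34.2% and 71.5% over all genes).

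Calcium- and sodium-activated channels included Kcnma1, the large-conductance channel, at 451, 371 and 622 CPM, Kcnn3, a small-conductance channel, at 59.2, 44.7 and 59.3 CPM, and Kcnt1, opened by sodium, at 362, 1161 and 598 CPM. Kcnmb4, a large-conductance channel subunit, had 78.7, 37.9 and 26.1 CPM, and Kcnip1, a partner of A-type channels, 27.7, 47.7 and 52.2 CPM. Inward rectifiers, which hold these neurons near their resting potential, were read at low to modest levels. Kcnj4 had 42.2, 53.5 and 32.7 CPM, and Kcnj3, a channel opened by G proteins, 79.1, 129.9 and 43.3 CPM. Kcnj11, the pore of the ATP-sensitive channel, had 79.9, 0.524 and 42.6 CPM, and replicate 2 was again close to the minimum, with 1905, 13 and 954 counts. Leak channels were led by Kcnk2 at 753, 435 and 332 CPM, Kcnk1 at 40.5, 116 and 30.9 CPM and Kcnk3 at 5.28, 34.8 and 8.03 CPM.

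Channels of intracellular calcium stores were prominent by reads. Itpr1, the inositol trisphosphate receptor, stood at 1598, 1535 and 1357 CPM and the ryanodine receptor Ryr3 at 1304, 826 and 704 CPM. Trpm7, a cation channel with a kinase domain, had 83.2, 710.3 and 119.8 CPM, high in replicate 2. Chloride and related channels were led by Ano3 at 1022, 1286 and 1453 CPM, Ttyh1 at 503, 418 and 405 CPM and the endosomal exchanger Clcn3 at 273, 316 and 277 CPM, with no library more than 2-fold from another.

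The pacemaker channel Hcn2 stood at 29.7, 12.2 and 4.06 CPM. The connexin Gja1 stood at 303, 231 and 384 CPM. It is 1 of the astrocyte markers used above. Panx1, a pannexin, had 45.0, 173 and 57.6 CPM and the mechanosensitive channel Tmem63b 90.8, 48.4 and 102 CPM. Beside Kcnj11, the channels of widest spread at a mean of 20 CPM or more were Tpcn1, an endolysosomal channel with 28.4, 193 and 4.33 CPM, and Kcnh5, a voltage-gated potassium channel with 3.06, 4.56 and 133 CPM.

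**Figure D4:**
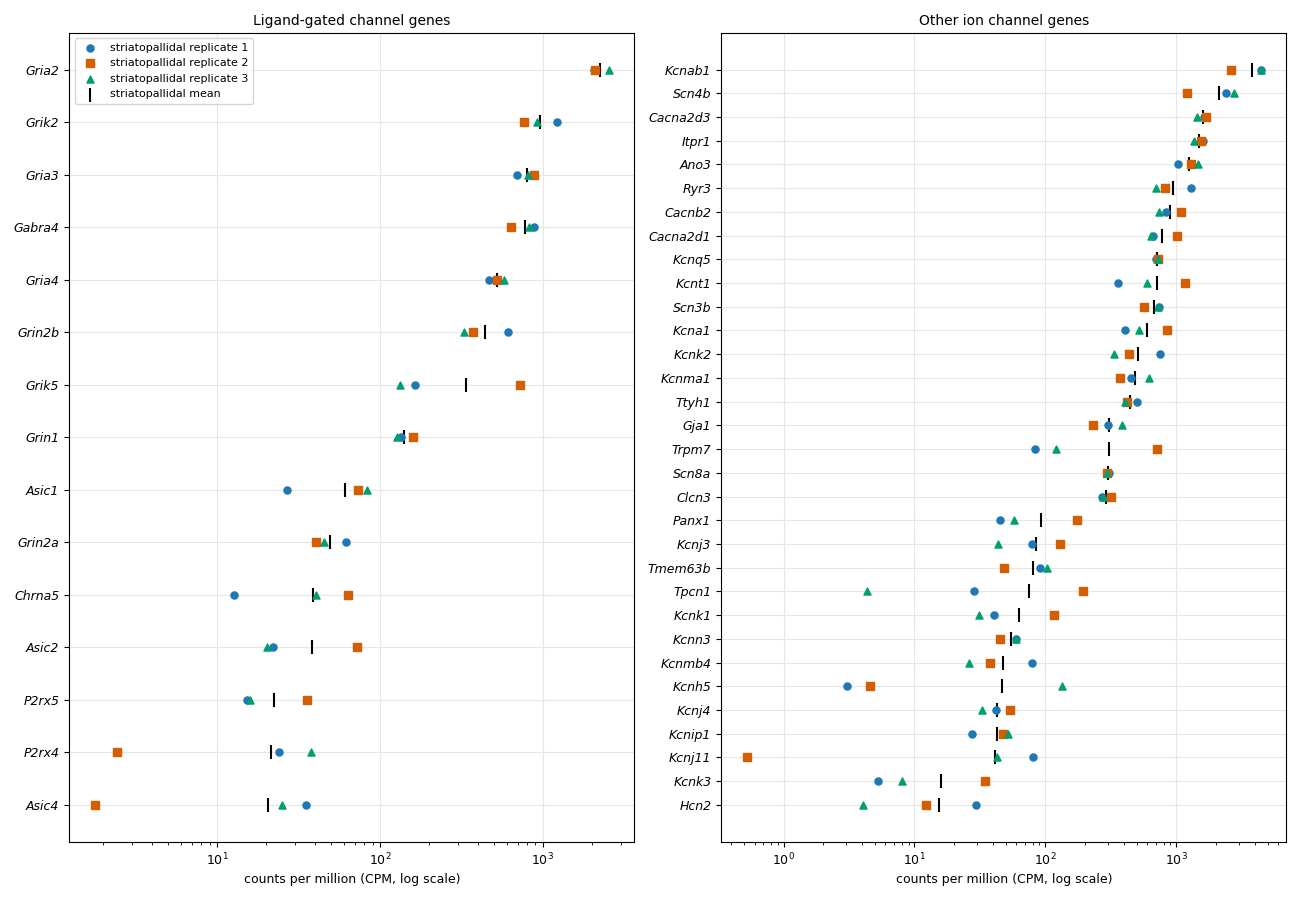
CPM (log axis) in each striatopallidal library (coloured symbols) and their mean (black bar) for ligand-gated channel genes (left) and other ion channel genes (right). Points of Gria2, Gria3 and Gria4, Kcnq5, Scn8a and Clcn3 nearly coincide, while Kcnh5 is high in replicate 3 alone and Kcnj11, Asic4 and P2rx4 are low in replicate 2.

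Of 283 transporter genes, 245 were kept and 80 of these were within 2-fold (32.7%), and 181 of 271 without replicate 2. The shares over all genes were 34.2% and 71.5%. Slc32a1, which loads GABA into vesicles, had 265, 857 and 137 CPM, highest in replicate 2. Slc1a1, the neuronal glutamate transporter, stood at 250.2, 145 and 252 CPM, and Slc1a3, a glutamate transporter that is also 1 of the astrocyte markers, at 486, 311 and 384 CPM. Slc18a2, which loads monoamines into vesicles, had 60.1, 34.3 and 46.6 CPM, and Slc18a1, its relative, 3.19, 5.56 and 2.05 CPM. The vesicular glutamate transporters of neurons had no match in the symbols used and were not analysed.

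Ion pumps and exchangers gave many of the reads of this class. Beside Atp2b1, the calcium pumps Atp2a2, of the endoplasmic reticulum, and Atp2b2, of the plasma membrane, stood at 1428, 699 and 1439.8 CPM and 769, 458 and 719.7 CPM. All 29 P-type pumps were kept, and 11 were within 2-fold, or 21 without replicate 2 (34.2% and 71.5% over all genes). The sodium/calcium exchangers Slc24a2 and Slc8a3 stood at 1084, 808 and 928 CPM and 142, 158 and 137 CPM, while Slc8a1 had 44.3, 494 and 57.2 CPM, high in replicate 2. The bicarbonate transporters Slc4a4 and Slc4a10 stood at 715, 723 and 695 CPM and 198, 246 and 237 CPM.

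Transporters of nutrients and metals were also read. Slc2a13, a proton-coupled inositol transporter, stood at 702, 887 and 618 CPM, Slc16a6, of the monocarboxylate family, at 131, 152 and 40.9 CPM and the neuronal glucose transporter Slc2a3 at 98.9, 45.7 and 105 CPM. Amino acid carriers were led by Slc3a1 at 394, 308 and 487 CPM, Slc38a2 at 335, 321 and 394 CPM and Slc7a14 at 81.4, 198 and 149 CPM. Of 19 kept zinc and metal transporters 3 were within 2-fold, and 15 of 22 without replicate 2 (34.2% and 71.5% over all genes). Among the 3 was Slc30a5 at 166, 223 and 204 CPM. Slc30a9 had 159, 340.0 and 162 CPM and the zinc importer Slc39a10 169, 46.0 and 303 CPM.

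Mitochondrial carriers included the ADP/ATP exchanger Slc25a5 at 384, 218 and 252 CPM, the phosphate carrier Slc25a3 at 299, 115 and 254 CPM and the S-adenosylmethionine carrier Slc25a26 at 66.2, 483 and 197 CPM. Of 30 kept carriers 10 were within 2-fold, and 23 of 32 without replicate 2 (34.2% and 71.5% over all genes). Other solute carriers were led by Slc22a23 at 339, 482 and 453 CPM, Slc22a17 at 478, 432 and 344 CPM and Slc35f1 at 388, 100.2 and 356 CPM. ABC transporters were led by the peroxisomal members Abcd2 at 469, 169 and 348 CPM and Abcd3 at 105, 89.2 and 186 CPM and the sterol exporter Abcg1 at 218, 122 and 176 CPM. The widest spreads in the class at a mean of 20 CPM or more were those of Slc35d2 (11.0, 179 and 3.30 CPM), the pump Atp13a1 (74.7, 2.06 and 4.46 CPM) and Atp1b2, a subunit of the sodium pump (87.9, 2.50 and 14.0 CPM). Slc35d2 was highest in replicate 2, and the other pair in replicate 1.

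Peptide genes comprised 69 symbols, of which 57 were kept and 18 were within 2-fold (31.6%), and 40 of 60 without replicate 2. Over all genes these shares were 34.2% and 71.5%. Of 14 neuropeptide precursors, 11 were kept. Penk, Tac1 and Pdyn, given above, were the only 3 precursors with a mean of 100 CPM or more, and the ratio of their highest to lowest library was 1.90, 1.60 and 2.07. The ratio of Pdyn to Penk reads was 0.176, 0.151 and 0.114, against 4.59 and 2.56 in the striatomesencephalic libraries.

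The other kept precursors were read at low levels. Sst, the somatostatin precursor of a class of interneurons, had 14.2, 19.2 and 25.5 CPM, and Pnoc, the nociceptin precursor, 7.88, 13.3 and 11.0 CPM. Nts, the neurotensin precursor, had 41.2, 3.39 and 16.9 CPM, and Nmu, the neuromedin U precursor, 39.5, 2.06 and 9.24 CPM, both lowest in replicate 2. Nucb2 had 14.9, 2.54 and 17.1 CPM, Apln, the apelin precursor, 7.59, 1.61 and 11.2 CPM, and Agt, angiotensinogen, 13.8, 8.47 and 5.76 CPM. Edn1, an endothelin precursor, had 0.713, 1.13 and 1.29 CPM. Cartpt, a peptide of striatal and other neurons, was not kept: it had 251, 1750 and 1 counts, from many in replicate 2 to a single count in replicate 3.

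The enzymes and granins that process and store peptides were all kept, 14 of 14, and 7 were within 2-fold, or 14 without replicate 2. All genes gave 34.2% and 71.5%. Of the 7 with a mean of 100 CPM or more, 5 were within 2-fold, where all kept genes of that level gave 57.8%. Without replicate 2, all genes gave 77.3% from 20 to 100 CPM and 91.6% at 100 CPM or more. Cpe, a carboxypeptidase that trims peptide precursors, stood at 1124, 983 and 1185 CPM, Pam, which amidates peptides, at 511, 716 and 530.4 CPM, and Scg5, a chaperone of a prohormone convertase, at 648, 429.9 and 623 CPM. Their points lay close together in all libraries. Growth factors were led by the neuregulins Nrg2 at 157, 521 and 112 CPM and Nrg1 at 172, 287 and 201 CPM, both ligands of ErbB receptors, and Tgfa at 155, 196 and 415 CPM. Of 32 kept growth factors 6 were within 2-fold, and 17 of 34 without replicate 2. Among peptide genes of mean 20 CPM or more the widest spreads were those of Nts, Tgfb2 (29.1, 2.86 and 56.1 CPM) and the granin Chga (50.8, 15.9 and 87.4 CPM), all lowest in replicate 2.

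Of 550 transcription factor genes, 479 were kept and 149 of these were within 2-fold (31.1%), and 367 of 525 without replicate 2. Shares of 34.2% and 71.5% were found over all genes. Factors known to shape striatal projection neurons in development were among the kept genes. Foxp1 stood at 1758, 2535 and 1686 CPM, its relative Foxp2 at 362, 388 and 409 CPM, and Bcl11b, needed for the maturation of these neurons, at 388, 381 and 455 CPM. The homeobox genes Meis2 and Pbx3 stood at 1279.7, 805 and 1068 CPM and 311, 231 and 384 CPM. No library differed from another by more than 2-fold in these 5 genes, all of mean above 100 CPM. Of the 77 transcription factors of mean 100 CPM or more, 46 were within 2-fold, with 57.8% over all kept genes of that level. The 5 do not stand for every factor. Ebf1 was also within 2-fold, but Isl1 had a ratio of 6.54 between the highest and the lowest library. Six3 (105, 2 and 79 counts) and Ikzf1 (169, 449 and 7 counts) were not kept.

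Further zinc finger genes were Zfp385b at 1674, 1253 and 1258 CPM, Zbtb20 at 576, 921 and 654 CPM and Zfp706 at 408, 259 and 422 CPM. Myt1l, a factor that maintains neuronal identity, stood at 900.0, 501 and 1060.2 CPM, and Egr1, an immediate early gene, at 514, 379.9 and 356 CPM. Nuclear receptors were led by the thyroid hormone receptor Thrb at 383, 333 and 379.9 CPM, the retinoic acid receptor Rarb, known from striatal neurons, at 415, 235 and 309 CPM, and the clock gene Nr1d2 at 230.4, 172 and 232 CPM. Of 26 kept nuclear receptors 10 were within 2-fold, and 18 of 27 without replicate 2 (34.2% and 71.5% over all genes).

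Among basic helix-loop-helix genes, Mxi1, an antagonist of Myc, stood at 527, 329.9 and 416 CPM, Tcf4 at 381, 371 and 324 CPM and the clock factor Npas2 at 335, 207 and 377 CPM. Of the leucine zipper list, Tef stood at 330.2, 332 and 326 CPM and Bach2 at 114, 143 and 191 CPM. The list also took Crebbp by its symbol, a coactivator of CREB and not itself a leucine zipper factor, at 129, 161 and 177 CPM. Foxo1, a forkhead factor controlled by insulin signalling, stood at 162, 224 and 234 CPM, the homeobox gene Adnp at 222, 132 and 329 CPM and Mef2c, an activity-regulated factor, at 396, 575 and 347 CPM.

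In several factors replicate 2 stood far from the others. Elk1, a target of the ERK kinases, had 220.1, 702 and 128 CPM, and Nrf1, a factor for mitochondrial genes, 47.4, 856 and 31.2 CPM, both high in replicate 2. Egr2, an immediate early gene, had 97.1, 1.81 and 88.2 CPM, and Zfp189 33.8, 0.443 and 47.3 CPM, both lowest there. Zfp275 had 14.3, 1.37 and 83.8 CPM, highest in replicate 3. The last 3 had the widest spread of the class at a mean of 20 CPM or more.

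**Figure D5:**
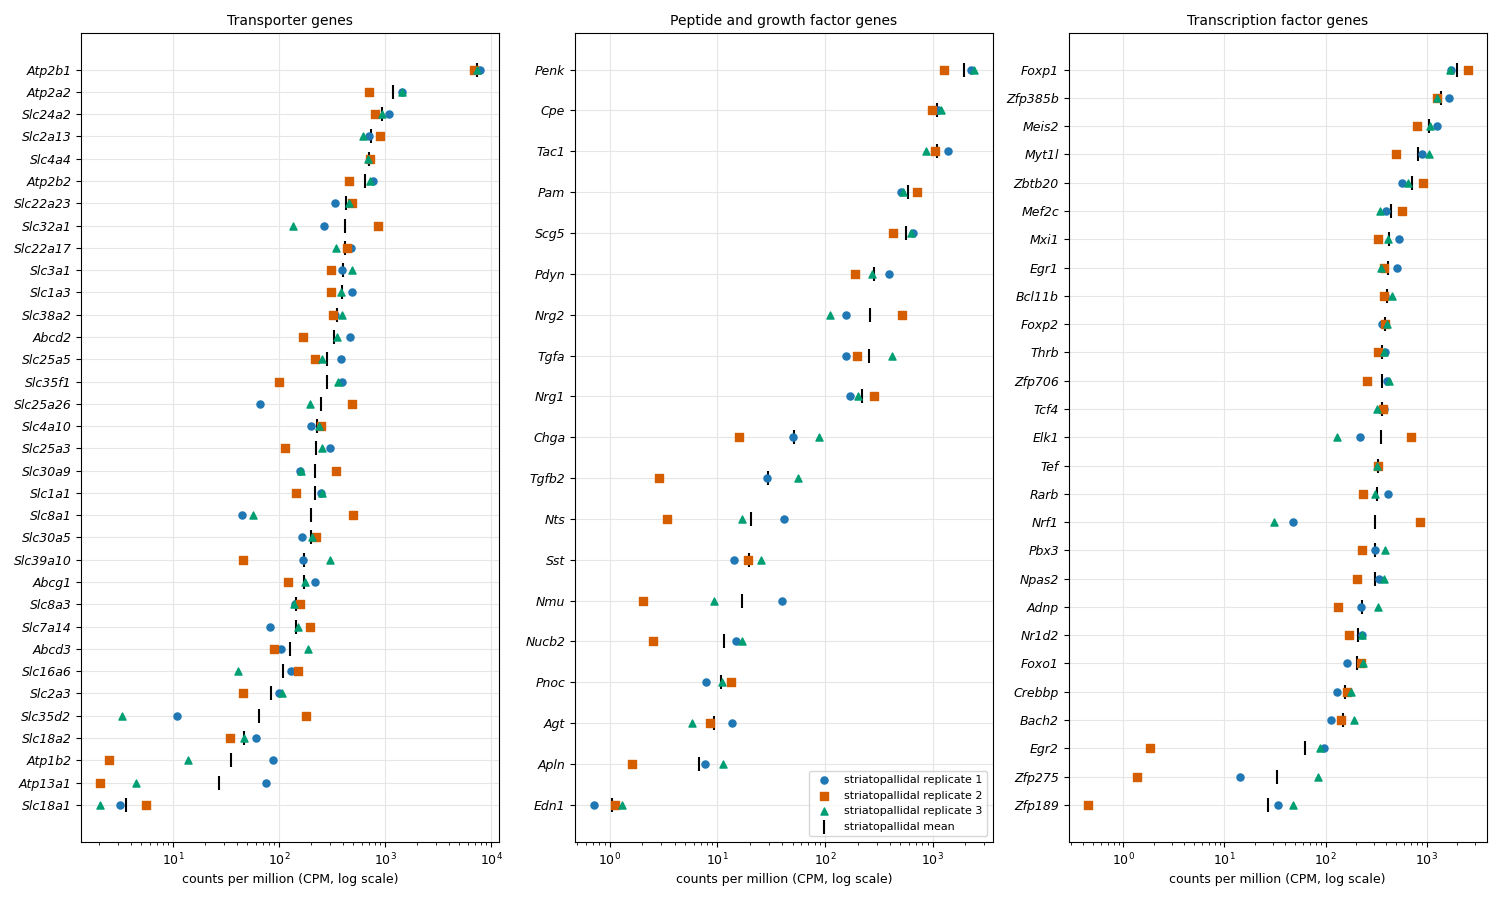
CPM (log axis) in each striatopallidal library (coloured symbols) and their mean (black bar) for transporter (left), peptide and growth factor (middle) and transcription factor genes (right). Points nearly coincide for Atp2b1, Slc4a4, Foxp2, Bcl11b and Tef, while Nts, Nmu, Egr2 and Zfp189 are low and Slc8a1 and Nrf1 high in replicate 2.

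Part of the repertoire missed the minimum of 10 counts in a library after many counts in another. Over the 6 classes, 105 members had at least 100 counts in 1 striatopallidal library and under 10 in another, and so were not kept. Replicate 2 was under 10 counts for 84 of them, replicate 3 for 23 and replicate 1 for 12. This rule was not tallied over all genes. Among all 1887 genes with 10 counts in just 2 of the libraries, 1468 missed them in replicate 2, so the pattern is not particular to these classes. The 105 members included 13 receptors, 3 ligand-gated channels, 14 ion channels, 26 transporters, 6 peptide genes and 43 transcription factors. Examples with many counts were Zfp691 (12, 4 and 3884 counts), the nuclear factor I gene Nfix (816, 2280 and 6 counts) and Adra1b, an adrenergic receptor (1, 0 and 396 counts). Of the 11150 genes kept in striatopallidal libraries, 10664 (95.6%) also had 10 or more counts in both striatomesencephalic libraries.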

How the data were processed

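RNA of laser-captured neurons was sequenced in 5 libraries, and the 3 with the striatopallidal cell type label are described here. Per the labels' protocols, RNA was taken up in TRIzol and its polyadenylated part copied with the REPLI-g Single Cell kit before GeneRead library preparation. Copying RNA from few cells can over- or under-represent single transcripts. TopHat2, HTSeq, edgeR, limma and genome build Rnor_6.0 are named in the submitters' processing notes, with no version or role. The authors deposited whole-number counts per gene for each library, from which CPM values were computed here on the full totals. Symbols came from the authors' deposited comparison, which also holds a log2 fold change, p-values and scores that were not used. It has 12054 rows, 15 without a symbol and 23 with a symbol turned into a date, and genes outside it have no name here. A deposited CPM-like signal table served as an alternative for the 4 markers.

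Symbols were assigned to 6 classes in 52 groups by name patterns, and the 3 genes of highest mean CPM per group, the 20 highest of all, every kept neuropeptide precursor, the 3 widest ratios per class among genes of mean 20 CPM or more and the cell type markers were named. Genes named as missing the minimum had at least 100 counts in 1 library and under 10 in another. The classes, markers and rules were chosen with earlier results of these data known. No test was made, since 1 group is described. Counts of the 3 libraries differed pairwise by a chi-square of 201 to 638 per degree of freedom over genes, so none was taken for another library sequenced again. The value cannot tell whether libraries shared an animal or RNA, since separate copying of the same RNA can also differ. Python 3.11.15, pandas 2.3.3 and, for TMM factors, edgeR 4.0.16 in R 4.3.3 were used. The 2-fold rule was run on simulated counts of well-read genes, with counting error only and a set change in 1 library. That run checked the calculation and cannot show how the rule behaves at the wider spread of these libraries. Alternatives were other count minimums, TMM scaling, a 3-fold rule and leaving out each library. An order per kilobase was planned but not run, since no transcript length was used here. Some genes that the naming rule takes are not reported here, though class and marker counts and sums include them.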

Additional observations from a re-analysis of the deposited data

How the results depend on the processing

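Alternatives gave 100 values for the numbers of genes kept or within 2-fold and for the 4 marker levels. Of these, 86 stayed within 1.5 times the reported count or within 1 SD of the reported mean. The other 14 were all counts of genes within 2-fold. Without replicate 2, the count over all genes and that of each class rose beyond 1.5 times the reported count. A mean of 3 libraries cannot shift by 1 SD when 1 is left out. The marker means without a library therefore tested nothing under this rule. With a ratio of at most 3 in place of 2, 6261 genes agreed (56.2%). Leaving out 1 striatopallidal library gave 5545 to 9016 genes within 2-fold, the highest without replicate 2, and by class 57 to 100 receptors, 23 to 34 ligand-gated channels, 66 to 103 ion channels, 115 to 181 transporters, 28 to 40 peptide genes and 227 to 367 transcription factors. Fewer libraries make a 2-fold range easier to meet, and the value was nevertheless lower without replicate 1 or 3 than without replicate 2. Under TMM scaling 216 of 220 named means moved by less than 1 SD, the others being Kcnq5, Slc4a4, Tef and Scn8a, whose SD is small. A minimum of 1 or 50 counts kept 13987 or 9095 genes. No paired analysis was possible because the results come from 1 group without a test. The order per kilobase was not run. Alternatives added after seeing the data, totals without the top genes and receptors of 20 CPM or more, gave 3849 genes within 2-fold and 30 receptors. The tallies by group and level without replicate 2, and the counts of genes for which replicate 2 was lowest or far from both others under TMM, were added too and stand beside their results. A count of 10 in a library has the counting interval given above, which limits single genes near that minimum.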

Other observations

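Among the 491 kept genes without a symbol, 13 were at least 10-fold higher in striatopallidal replicate 1 than in both other striatopallidal libraries, and 0 were so in replicate 2 or 3. Replicate 1 also had the most genes that reached 10 counts in it alone, 1034 against 302 in replicate 2 and 468 in replicate 3. In the striatopallidal libraries, 14841 genes had 10 counts in at least 1 library, so the 11150 genes kept leave out 1804 genes seen at that level in 1 library and 1887 seen in 2.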
